A study of Arabidopsis thaliana with 12 samples.

Results

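AT3G54930 encodes a regulatory B subunit of protein phosphatase 2A, and its level is described here in Arabidopsis thaliana as measured on a 1-channel array. It is 1 gene among 3439 features, found as the feature whose platform annotation gives this gene and no other. It was selected on its difference in intensity between the groups, so that difference is described and not tested. In 6 samples the plants were the kn09 mutant, which the labels call hypersensitive to proline and blocked in its breakdown in the mitochondrion, with 100 mM proline in MS medium for 48 h. In the other 6 the plants were wild type, with roots on MS medium with 100 mM glucose for 48 h. All were of the ecotype Wassilevskija. Mutant and proline came together, as did wild type and glucose, and their parts in a difference cannot be told apart. No label names the mutated gene, the tissue that gave the RNA beyond the treated roots, or whether samples came from separate plants, so p-values and errors cover the spread among these 12 samples alone, and that spread may be technical.

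Protein phosphatase 2A removes phosphate from serine and threonine residues. The enzyme is a complex of a scaffolding A subunit, a catalytic C subunit and 1 of many regulatory B subunits, and the B subunit largely sets which substrates the complex meets and where in the cell it acts. The B subunits of plants form the families B, B' and B'', and AT3G54930 belongs to B', where it is known as B' epsilon. In roots the phosphatase is best known through its scaffolding subunit RCN1, which is needed for normal auxin transport.

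AT3G54930 gave a low signal in kn09 on proline and a high one in wild type on glucose. Its intensities in kn09 samples 1 to 6 were 0.570, 0.601, 0.839, 0.855, 0.892 and 0.798 in the authors' units. In wild type samples 1 to 6 they were 7.04, 7.05, 8.13, 6.18, 7.09 and 6.91. Every kn09 sample lay below every wild type sample, and the lowest wild type value was 6.92 times the highest kn09 value. Such a separation with kn09 lower occurred in 299 of the 3439 features, or 8.69%, and the opposite one in 9.28%. Of the 299, 1 had a wider gap. The mean was 0.759 ± 0.138 in kn09 and 7.07 ± 0.625 in wild type (SD, n = 6 each), so kn09 had 0.107 times the wild type intensity. After quantile normalization the gene averaged -0.44 in kn09 and 2.88 in wild type on the log2 scale, a difference of -3.32 ± 0.17 (SE, limma). In bulk RNA a smaller share of cells that express a gene and less RNA per cell cannot be told apart.

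**Figure D1:**
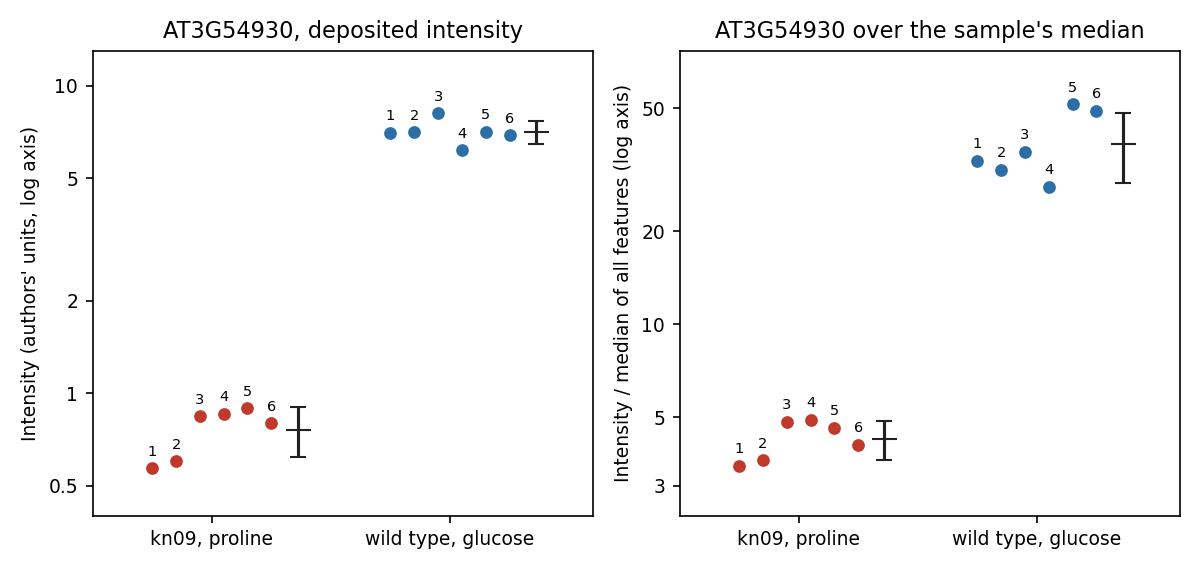
Intensity of AT3G54930 in each sample in the authors' units (left) and divided by the median of all 3439 features of that sample (right), both on log axes. Each point is a sample with its number, and the bar is the mean ± SD of the 6 samples of a group. On the left kn09 runs from 0.570 to 0.892 and wild type from 6.18 to 8.13, and the groups stay apart after division by the median.

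The samples differed in overall brightness, and the gene was therefore also read against each sample's own features. The ratio of AT3G54930 to the sample median ran from 3.48 to 4.90 in kn09 and from 27.9 to 51.6 in wild type. Wild type samples 5 and 6 had the highest ratios, at 51.6 and 49.2, and their medians were the lowest of the 12. The feature ranked 535 to 727 from the brightest in the kn09 samples and 68 to 89 in the wild type samples. These ranks order the brightness of features and not the abundance of transcripts, since probes differ in their response. None of the 12 values was at 0, and none was near the ceiling of the scale at about 100.

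Neighbouring sample numbers within a group resembled each other over all features. For samples 1 and 2, 3 and 4, and 5 and 6, rank correlations were 0.838 to 0.917 in kn09. In wild type they were 0.896 to 0.943. Between samples of different pairs they were 0.816 to 0.870 in kn09, overlapping the range of the pairs, and 0.782 to 0.874 in wild type. AT3G54930 followed these pairs in kn09, where samples 1 and 2 were the lowest and averaged 0.585, against 0.847 for samples 3 and 4 and 0.845 for samples 5 and 6. In wild type the pairs averaged 7.04, 7.16 and 7.0, and the highest and the lowest value of the group, 8.13 and 6.18, fell within the pair of samples 3 and 4. With each pair averaged to 1 value the log2 difference stays at -3.32 by arithmetic, and its SE was 0.32.

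The gene varied little within a group. Its coefficient of variation was 18.2% in kn09 and 8.84% in wild type, and its highest value was 1.57 times its lowest in kn09 and 1.32 times in wild type. The within-group SD of its normalized log2 values was 0.20, against a median of 0.79 over all features, and 2.68% of the other features had a smaller one. Most dim features varied more, so the 200 features nearest to it in mean brightness over the 12 samples were also used. Their median SD was 0.35, and 12% of them had a smaller SD than AT3G54930. This match is rough, since the gene averaged -0.44 in kn09 and 2.88 in wild type on the log2 scale, near the matched mean in neither.

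**Figure D2:**
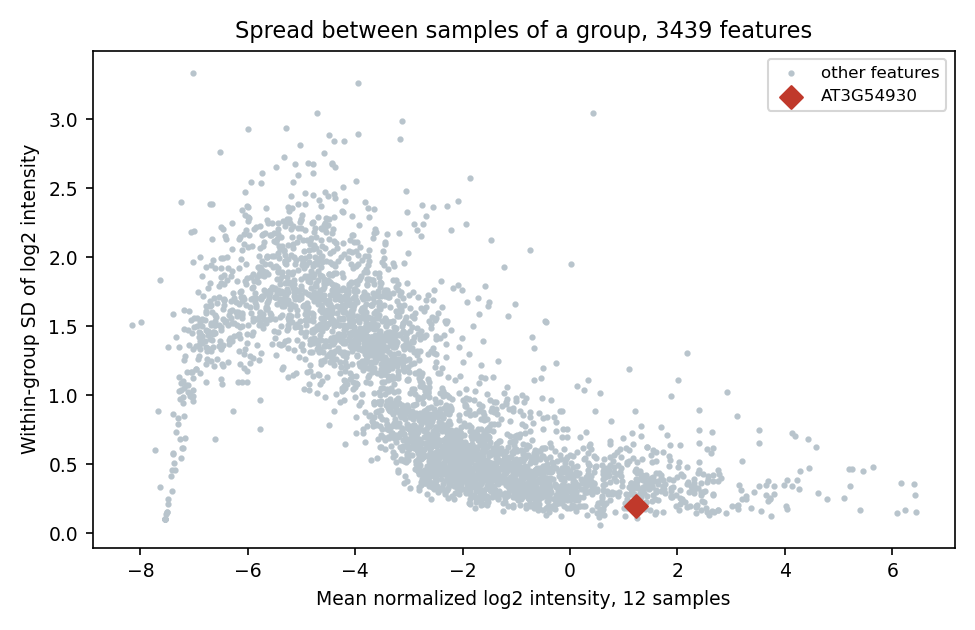
Within-group SD of normalized log2 intensity (vertical axis) against mean normalized log2 intensity over the 12 samples (horizontal axis) for 3439 features. AT3G54930, the red diamond, has an SD of 0.20 and lies near the lower edge of the cloud.

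Over the whole array 27.7% of the features passed an adjusted p of 0.05 in limma, 13.6% lower and 14.1% higher in kn09, with the 12 samples taken as independent. Limma's pooled estimate of the correlation within the sample pairs, after the group term, was 0.447. It is another measure than the rank correlations between samples given above. With the pairs averaged 202 features passed, 122 lower and 80 higher, and 620 when the pairs entered as a random block, 277 lower and 343 higher. With zeros as missing 560 fell and 430 rose. By its log2 difference AT3G54930 stood at place 16 among all decreases and at place 3 among those of the 692 features with 1 gene. Of the 15 features that fell by more, 9 had at least 1 kn09 value at 0, and their sizes depend on the value put in place of a zero. The other 6 had no zero, and none of those was tied to 1 gene. The place among all decreases ran from 6 with a pseudocount to 52 with no normalization or with median centring. It was 25 without wild type sample 1 or without wild type sample 2.

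**Figure D3:**
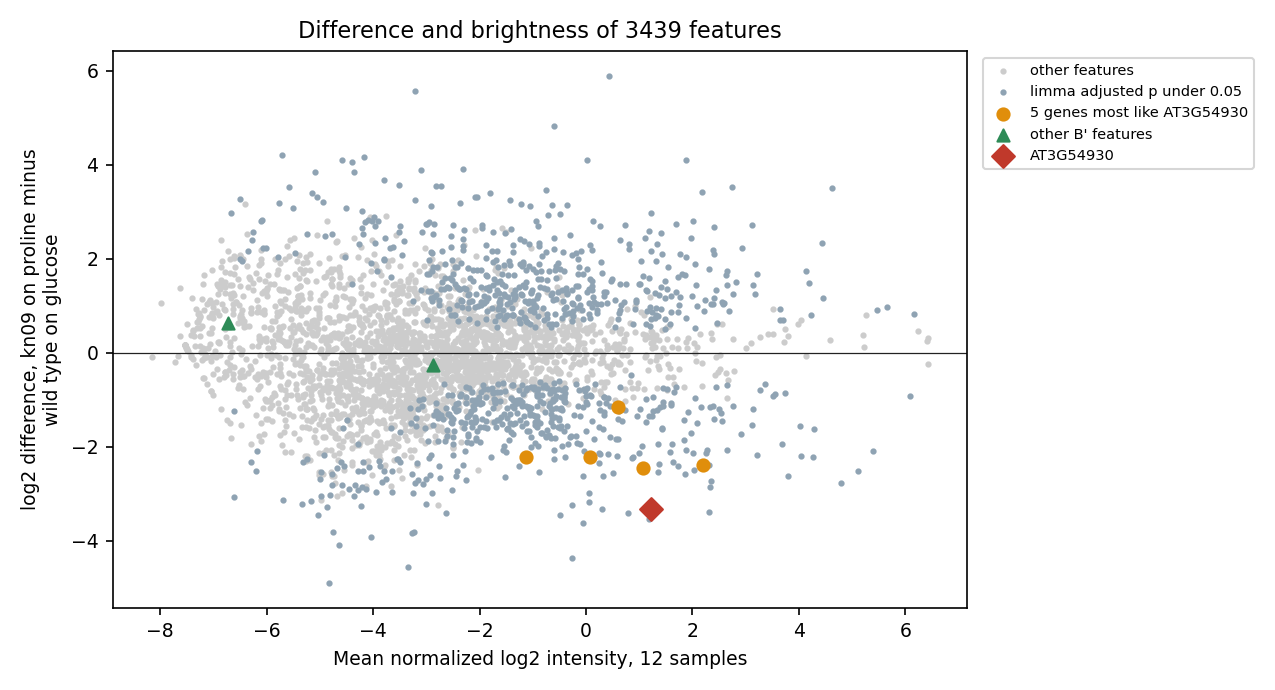
Log2 difference of kn09 on proline minus wild type on glucose (vertical axis) against mean normalized log2 intensity (horizontal axis) for 3439 features. AT3G54930 (red diamond) lies at -3.32, the 5 genes most like it (orange) lie between -2.45 and -1.15, and the other B' features (green triangles) lie at 0.62 and -0.25.

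Other genes of the phosphatase were looked up in a list of 29 Arabidopsis genes of protein phosphatase 2A: scaffolding subunits, the 3 families of regulatory subunits, catalytic subunits and accessory proteins. Besides AT3G54930, 1 of them had a feature of its own, the B' gene AT5G25510, known as B' kappa. No scaffolding, catalytic or accessory gene had one, and neither had any of the 13 listed catalytic genes of the related phosphatases PP1, PP4 and PP6. Within this phosphatase the data therefore bear on the B' family alone, and there only in part. Of the 9 listed B' genes, 2 had a feature of their own, AT3G54930 included.

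AT5G25510 was at or close to 0 in both groups. In kn09 the table lists it at 0 in 4 of 6 samples, with 0.00747 in kn09 sample 2 and 0.105 in kn09 sample 4. In wild type it was listed at 0 in samples 3 and 6, and the other 4 lay between 0.00619 and 0.0337. The groups overlapped, and the gene did not pass in limma, with a log2 difference of 0.62 ± 0.72 (SE), an unadjusted p of 0.404 and an adjusted p of 0.564. The sign of this difference was not stable. The difference was -0.067 without kn09 sample 4, -0.66 with no normalization and -0.57 with median centring.

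A further feature was annotated with 2 genes, both from the B' list, so its signal cannot be given to either. Its intensities in kn09 samples 1 to 6 were 0.0901, 0.0905, 0.153, 0.161, 0.0927 and 0.128. In wild type samples 1 to 6 they were 0.119, 0.117, 0.204, 0.257, 0.158 and 0.151. Samples 3 and 4 were the highest of each group, and the groups overlapped. The feature was dim: each kn09 value lay below the median of all features in its sample, and wild type values lay on both sides of it. The mean was 0.119 ± 0.0327 in kn09 and 0.168 ± 0.0542 in wild type (SD, n = 6 each), and the log2 difference was -0.25 ± 0.30 (SE), at an adjusted p of 0.570 in limma. Whether the change of AT3G54930 differs from that of the other B' features was not tested, since AT3G54930 was chosen for its change.

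**Figure D4:**
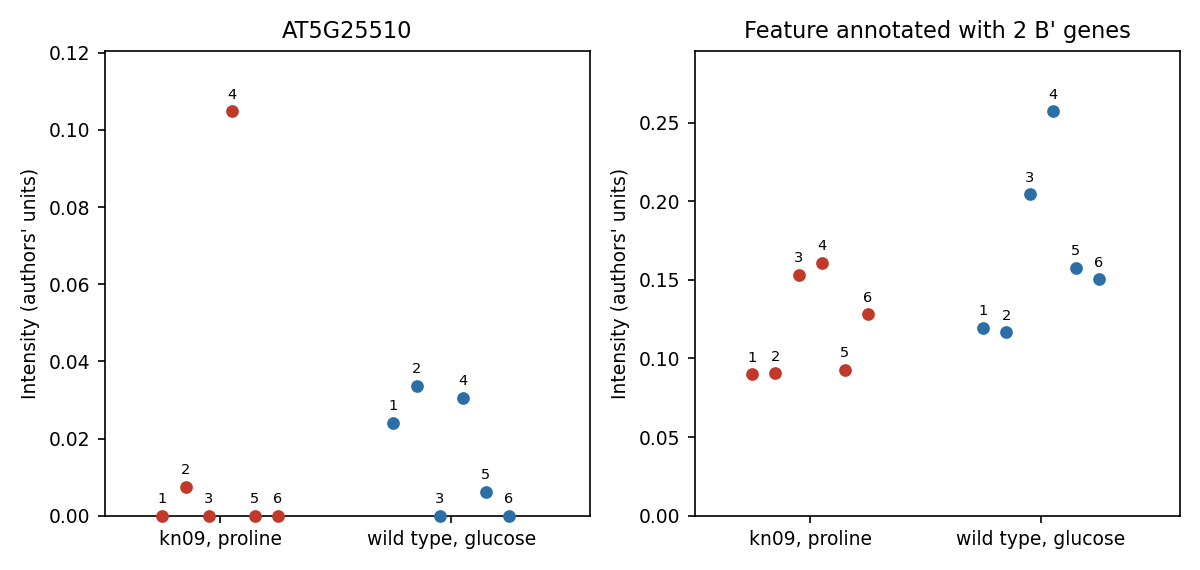
Intensities in the authors' units of AT5G25510 (left) and of the feature annotated with 2 B' genes (right), with each point a sample and its number. AT5G25510 is at 0 in 4 kn09 and 2 wild type samples, and in both panels the kn09 and wild type values overlap.

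A search of the gene table's synonyms for the words phosphatase and kinase found metabolic enzymes only. Of these 3 genes, 1 fell and 2 did not pass, where 27.7% of all features passed and 13.6% fell. PRK (AT1G32060), a Calvin cycle kinase, had 0.334 ± 0.110 in kn09 and 1.34 ± 0.347 in wild type (SD, n = 6 each). Its log2 difference was -2.06 ± 0.27 (SE), and limma gave an adjusted p of 0.000176. PPDK (AT4G15530), the pyruvate orthophosphate dikinase, differed by 0.12 ± 0.26 (SE) on the log2 scale, at an adjusted p of 0.761. SBPASE (AT3G55800), a Calvin cycle phosphatase, differed by -2.08 ± 0.96 (SE), at an adjusted p of 0.129, and had 2 kn09 values at 0. Its size depends on the value put in place of a zero, and it was -0.64 with zeros as missing and -0.75 with a pseudocount.

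Some signals of green tissue were lower in kn09 together with AT3G54930. Of 13 listed genes that mark green tissue, 4 had a feature of their own, and 3 of them fell and 1 did not pass, where 13.6% of all features fell. The list was chosen with earlier results of these data known, so this count is a description. A further 2 features annotated with several genes held listed markers and were not read. Named genes of the photosynthetic membrane outside this list were mixed. PSBY (AT1G67740), a small protein of photosystem II, fell, with 1.03 in kn09 and 2.20 in wild type. PSBW (AT2G30570), a subunit of photosystem II, rose, with 67.8 in kn09 and 32.7 in wild type. The calls of PSBY and PSBW did not hold with the pairs averaged. NdhS (AT4G23890), a subunit of the chloroplast NADH dehydrogenase-like complex, had 12.6 in kn09 and 9.33 in wild type and did not pass. The summed intensity of the 4 measured markers ran from 5.81 to 8.94 in kn09 and from 32.5 to 51.5 in wild type. Most of this sum came from the antenna gene LHB1B2 (AT2G34420). The ratio of AT3G54930 to this sum ran from 0.0669 to 0.147 in kn09 and from 0.120 to 0.216 in wild type, so on this ratio the groups overlapped. The divisor is made mostly of genes that fell themselves, which draws the groups together, so the overlap is a description. Of the 4 measured markers only SBPASE had values at 0, in kn09. None of 16 listed root markers had a feature of its own, so the labelled root treatment could not be set against root genes. The part of green tissue in the lower signal of AT3G54930 was not tested.

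Genes of like intensity in wild type differed among themselves in kn09. The 6 single-gene features nearest to AT3G54930 in mean wild type intensity, 3 on each side, had between 0.194 and 1.53 times their wild type intensity in kn09, where AT3G54930 had 0.107 times. Of the 6, 3 fell, 0 rose and 3 did not pass in limma, where 13.6% of all features fell and 14.1% rose. PSAN (AT5G64040), which belongs to photosystem I, fell to 1.48 ± 0.381 in kn09, against 7.65 ± 1.68 in wild type (SD, n = 6 each). AT1G62250 fell to 2.33 ± 0.242 in kn09, against 10.2 ± 3.26 in wild type, and AT4G31470 fell to 2.53 ± 0.233, against 6.12 ± 2.16 in wild type. AT4G31470 did not pass with the pairs averaged, at an adjusted p of 0.111, the highest of its alternatives, which went down to 0.000147. NdhS (AT4G23890) had 12.6 ± 1.36 in kn09 and 9.33 ± 2.12 in wild type, with an adjusted p of 0.184, and passed with median centring, at 0.0467. The other two, AT4G39760 and AT3G13150, had log2 differences of 0.60 and -0.34, with adjusted p of 0.0949 and 0.260. Without wild type samples 1 and 2 both passed, at 0.0380 and 0.0320, and AT4G39760 also did with a pseudocount, at 0.0484, and with the trend and robust settings of eBayes, at 0.0369.

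The genes most like AT3G54930 across the samples were taken from 415 single-gene features with no value at 0, by Pearson's r of normalized log2 values over the 12 samples. They were AT2G40980 with r of 0.990, PSBY (AT1G67740), a small protein of photosystem II, with 0.967, AT3G50180 with 0.966, AT1G68660, a ClpS adaptor of the chloroplast protease, with 0.964, and CUTA (AT2G33740), a plastid copper-binding protein, with 0.959. The samples lie in 2 groups and share pairs, and r over all 12 mostly reflects the distance between the groups. All 5 fell in kn09, as a high r with a gene chosen for its fall requires. The set depended on the measure: by Spearman correlation 0 of the 5 were again among the first 5, and with the replicate block 2. The sixth gene had r of 0.957, close to the fifth.

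By Pearson's r AT2G40980 came closest to the pattern of AT3G54930, with a smaller difference. Its intensities in kn09 samples 1 to 6 were 0.847, 0.851, 0.906, 1.07, 0.928 and 0.825. In wild type samples 1 to 6 they were 4.22, 4.32, 5.19, 5.21, 4.71 and 4.02. The groups did not overlap, a separation found with kn09 lower in 8.69% of all features, and each was narrow. Its log2 difference was -2.45 ± 0.17 (SE), and limma gave an adjusted p of 1.62e-06. The genes of this set were picked for likeness to a gene chosen for this difference. Their adjusted p values therefore describe the difference and do not test it. The other 4 had log2 differences of -1.15 for PSBY, -2.22 for AT3G50180, -2.21 for AT1G68660 and -2.38 for CUTA. PSBY did not pass with the pairs averaged, at an adjusted p of 0.0781, the highest of its alternatives, which went down to 1.48e-05.

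**Figure D5:**
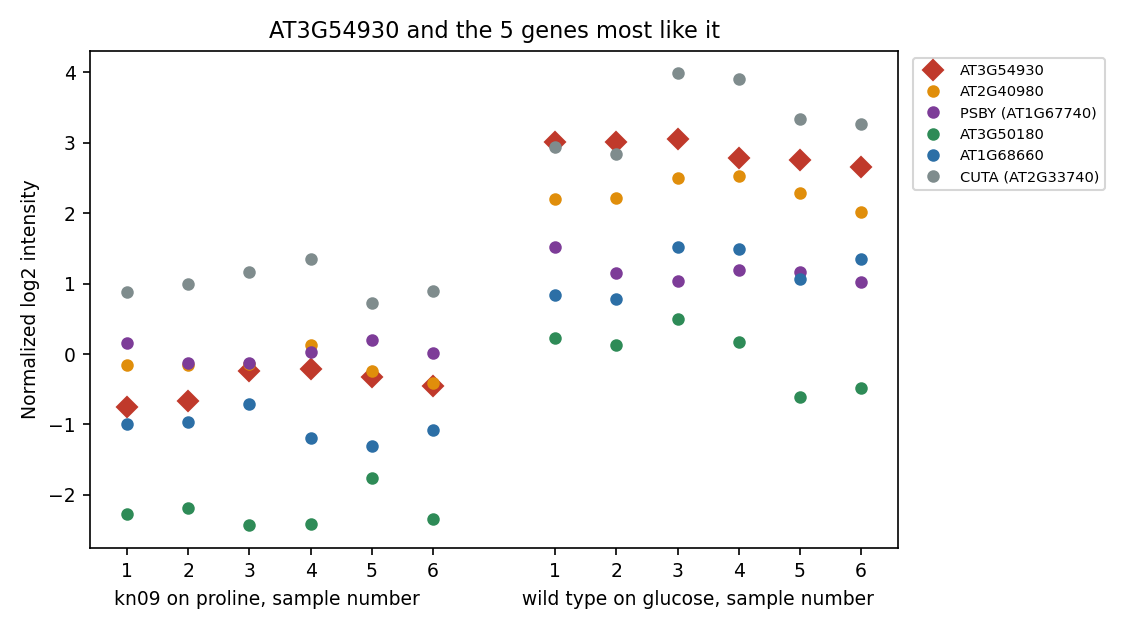
Normalized log2 intensity (vertical axis) of AT3G54930 and the 5 genes most like it over the 12 samples, by sample number, with kn09 on the left and wild type on the right. Each point is 1 sample. For all 6 genes every kn09 value lies below every wild type value, as in 8.69% of all 3439 features. The 5 were picked for likeness to a gene chosen for its fall, so their separation reflects that choice. AT3G54930, itself chosen for its difference, has the widest step between the groups.

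Inside the groups the likeness was lower and uneven. With each gene taken as its deviation from its group mean, r over the 12 samples ran from -0.23 for AT1G68660 to 0.40 for AT3G50180, and it was 0.32 for AT2G40980. AT3G50180 had r of 0.83 within wild type and -0.089 within kn09 (n = 6 each). The 5 genes with the highest r of deviations were AT4G22370 with 0.840, CML30 (AT2G15680), a calmodulin-like protein, with 0.808, SPL (AT4G27330), a regulator of spore formation, with 0.800, PSBW (AT2G30570) with 0.783, and AT2G26100 with 0.771. None of them was among the first 5. PSBW rose, with 67.8 ± 20.8 in kn09 and 32.7 ± 8.99 in wild type (SD, n = 6 each). Limma gave it an adjusted p of 0.0267, a call that ended when the replicate number was a block, at 0.0885, with the pairs averaged, at 0.226, with the pairs as a random block, at 0.0511, and when any 1 was left out of kn09 samples 3 and 4 and wild type samples 3, 4, 5 and 6, at up to 0.0609. One kn09 value of PSBW stood at the ceiling. The other 4 did not pass, though SPL did without wild type sample 2, at 0.0494. This second set depended on the scaling, since with no normalization 1 of the 5 was again among the first 5 and with median centring 0.

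Genes near AT3G54930 on chromosome 3 were looked up next. In the order of protein-coding genes of the TAIR10.1 table, the nearest single-gene features lay 27, 30 and 40 genes before it and 15, 97 and 119 genes after it. Of these 6, 1 fell, 2 rose and 3 did not pass, against 13.6% lower and 14.1% higher over all features, and so few genes say little about the region. AT3G54550, 40 genes before, fell to 0.426 ± 0.0578 in kn09, against 1.29 ± 0.389 in wild type (SD, n = 6 each), at an adjusted p of 0.000402 in limma. Its alternatives gave 1.53e-05 to 0.0602, the last with the pairs averaged. AT3G55070, 15 genes after and the nearest, rose by 2.34 ± 0.59 (SE) on the log2 scale, at an adjusted p of 0.0114. Its alternatives gave 0.000753 to 0.0986, the last with the pairs as a random block, and with a pseudocount its log2 difference was 0.84. FBL17 (AT3G54650), an F-box protein of the cell cycle, had 0.0921 ± 0.0441 in kn09 and was listed at 0 in 4 of the 6 wild type samples. Its log2 difference of 3.30 ± 0.69 (SE), at an adjusted p of 0.00413, rests on those zeros, and with zeros as missing the difference was 0.57 and the adjusted p 0.511, the highest of its alternatives. AT3G54680, SBPASE and AT3G56010 had log2 differences of -1.04, -2.08 and -0.39 and did not pass. Leaving out 1 sample gave -1.37 to -0.37 for AT3G54680, the last without kn09 sample 2, -2.47 to -1.39 for SBPASE, the last without kn09 sample 6, and -0.72 to -0.16 for AT3G56010, without wild type sample 4 and without kn09 sample 1.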

How the data were processed

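The deposited table holds 1 value for each of 3439 features in each of 12 samples. From its values the unit is intensity on a linear scale, scaled by the authors to a reference that is not given in the sources used here, as are scanner, background correction and averaging of spots; centring is unknown. Sample medians ran from 0.137 to 0.224, and 175 to 475 features per sample were at 0. The number of arrays limits the precision.

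Features were named from GEO's platform annotation, updated to TAIR10.1 by gene identifier: 692 had 1 gene, of which 690 matched, 870 had several and 1877 none. The annotation names no build, so no coordinates are given.

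Zeros were set to the sample's percentile 1 of positive values, log2 was taken and samples were quantile normalized (limma 3.58.1, R 4.3.3). lmFit and eBayes, with group as the only term, were fitted on all features, two-sided, with Benjamini-Hochberg adjustment at 0.05. The fit was first checked on simulated data with independent samples, so that check does not cover the correlation within sample pairs. Means and SDs are of deposited intensities. Ratios given as times are of deposited intensities without normalization, and log2 differences come from the limma fit.

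The gene and the lists were chosen with earlier results of these data known. Named genes are measured phosphatase list members, the 5 most like AT3G54930 in either measure, 3 neighbours on each side by chromosome order and by wild type intensity, and word-list and marker genes. Alternatives were other scalings, zeros as missing, a pseudocount of 0.1, leaving out the dimmest 25% of features, blocks, pair means, eBayes with trend and robust settings, and leaving out samples. Same-numbered samples of the groups had deviations correlated at 0.023 to 0.094, under the limit of 0.1, and were not taken as pairs, though 6 of 6 kn09 and 5 of 6 wild type samples correlated best with their own number.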

Additional observations from a re-analysis of the deposited data

Results flagged for a closer look

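Among 56 groups of 6 samples, 1 group per gene and condition, a sample stood well away from its group in 3, where chance flags about 1 in 20; AT3G54930 was not among them. AT5G25510, the other B' gene, stood at 0.105 in kn09 sample 4, above 0 to 0.00747 in the others. AT3G50180 stood at 0.325 in kn09 sample 5, above 0.177 to 0.212. FBL17 (AT3G54650) read 0.130 in wild type sample 2, where the other samples read 0 to 0.0389.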

How the results depend on the processing

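Over the 22 alternatives run, the log2 difference of AT3G54930 lay between -3.42 with zeros as missing and -3.15 with median centring. It ran from -3.36 to -3.25 when 1 sample was left out. The gene was chosen for this difference and its groups lie far apart, so the negative sign was fixed in advance. With no normalization the median of all features was -0.36 and with median centring -0.27, against -0.03 with quantile normalization. With the replicate number as a block the difference of AT3G54930 was -3.32 ± 0.20 (SE), where only the SE could change. Its place among all decreases was 52 with no normalization, 52 with median centring, 6 with a pseudocount, 9 without the dimmest 25% of features, 43 without wild type samples 1 and 2, and 12 to 25 when 1 sample was left out. The count of features past the threshold was 951, 815 with the replicate block, 202 with pair means, 620 with the pairs as a random block, and 789 to 1010 with 1 sample left out. Of the phosphatase and kinase lists, 1 gene besides AT3G54930 passed with each sample left out. That gene was PRK, a metabolic kinase from the word search. Of all features 27.7% passed in the main fit. Of the 5 genes most like AT3G54930, 0 were again among the first 5 by Spearman correlation, 2 with the replicate block and 3 to 5 with 1 sample left out, 3 of them without wild type sample 1. For the deviations the counts were 3 by Spearman correlation, 1 with no normalization, 0 with median centring, 0 with the replicate block and 2 to 5 with 1 sample left out. AT5G25510 turned to -0.66 with no normalization, -0.57 with median centring and -0.067 without kn09 sample 4, with 0.84 at the other end when 1 sample was left out; the cause of the first 2 was not tested. The replicate block ended 1 call among the named genes, that of PSBW, at 0.0885.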
